A study of Mus musculus with 8 samples.

Results

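The FoxO and MiT/TFE transcription factors were followed through RNA-seq of bone marrow-derived macrophages (BMDMs) that did or did not carry a deletion of Nudt21. The members are 6 genes, Foxo1, Foxo3 and Foxo4 of the FoxO family and Tfeb, Tfe3 and Mitf of the MiT/TFE family, of 21080 gene symbols in the deposited tables, and they were taken by symbol. All 6 passed the filter on low values, which left 16284 genes for testing. Foxo1 was chosen by its measured difference between the genotypes, since it stood in a list that the study had drawn from these same samples. Its genotype values are therefore given as a description with no test, whereas the other 5 members were included as relatives of the same families. The members were chosen with earlier results of these data known, so the tests of these 5 are not free of that choice.

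BMDMs came from C57BL/6 mice in which LysM Cre, a recombinase expressed in myeloid cells, deletes the floxed exons of Nudt21 (Nudt21 fl/fl LysM Cre, hereafter cKO). Controls were sex-matched littermates carrying LysM Cre alone (hereafter WT), so both genotypes carried the recombinase. Macrophages of both genotypes were grown from marrow with M-CSF and were collected without stimulation (0 h) or after overnight IFNγ and then LPS for 4 h. There were 2 samples in each of the 4 groups, 8 in all, and each sample pooled the cells of 2 mice, so the spread between samples is a spread between pools. The ages of the mice were not given in the sources used here.

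FoxO proteins are forkhead factors that switch on genes for cell cycle arrest, antioxidant defence and autophagy. When growth factor signalling activates PI3-kinase and Akt, they are phosphorylated, bound by anchoring proteins in the cytoplasm and kept away from their targets. MiT/TFE proteins are basic helix-loop-helix leucine zipper factors that bind E-box sequences known as CLEAR elements in front of genes for lysosomes and autophagy, and when nutrients are plentiful mTORC1 phosphorylates them at the lysosome, which keeps them in the cytosol. In macrophages Tfeb and Tfe3 are known for lysosomal and inflammatory responses, whereas Mitf is best known from melanocytes and osteoclasts. Nudt21 encodes a subunit of cleavage factor Im, which binds UGUA in nascent RNA and favours distal polyadenylation sites. The values below are RNA levels, and neither protein amount nor location in the cell was measured.

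The 3'UTRs of the members were examined first, since Nudt21 reads UGUA there. For each gene the protein-coding transcript with the longest 3'UTR in GENCODE M21 (GRCm38, the build the authors aligned to) was taken, and the letters TGTA, which are UGUA in the RNA, were searched on the sense strand with overlaps allowed. Mitf held 30 copies in a 3'UTR of 3174 bases, or 9.45 per kb, more than 91.4% of 14127 genes whose 3'UTR had at least 500 bases. The median over those genes was 5.31 per kb. Foxo1 held 40 copies in 6240 bases (6.41 per kb) and Foxo3 held 27 copies in 4490 bases (6.01 per kb), both above that median. Tfe3 held 6 copies in 1271 bases and Foxo4 held 5 in 1351 bases, at 4.72 and 3.70 per kb. Tfeb held a single copy in 605 bases (1.65 per kb), whose first base lay 6 bases before the annotated end of the transcript. The 6 genes therefore ranged from UGUA-rich to UGUA-poor, with Mitf and Tfeb at the ends. The 30-base stretch of each 3'UTR that held the most copies, taken nearest to the stop codon in case of ties, is shown to let the motif be seen in its setting, written 5′ to 3′ along the transcript with TGTA in capitals. Each stretch is 3'UTR sequence, and a match is a description of letters, not a site of binding.

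Foxo1 (chr3:52347306-52347335, plus strand): tTGTAtatatgcagtagatacagaatTGTA
Foxo3 (chr10:42185215-42185244, minus strand): tgTGTAcgctgatcttcctagaagTGTAtg
Foxo4 (chrX:101259687-101259716, plus strand): tctatgacaTGTAgggatTGTAgaggaggg
Tfeb (chr17:47792390-47792419, plus strand): tgcctttagtaaacactgtgcttTGTAgta
Tfe3 (chrX:7774032-7774061, plus strand): caggccccaacccTGTAataggcaaggagg
Mitf (chr6:98018541-98018570, plus strand): acaTGTAaagtttaattacacgaaTGTAaa

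The stretches of Foxo1, Foxo3, Foxo4 and Mitf held 2 copies within 30 bases, whereas those of Tfeb and Tfe3 held 1. The 3'UTR made up 72.0% of the bases of the Foxo1 transcript, 65.6% of Foxo3 and 65.0% of Mitf, against 25.8% of Tfeb. Coverage averaged over a whole gene thus takes in a long 3'UTR for the first 3 genes, and a change in 3'UTR use and a change in RNA amount enter their values together. The part of 3'UTR use in the results was not tested. Promoters of 5 of the 6 members were found in the RefSeq table (GRCm38.p6, 250 bases before to 50 bases after the start, 10 promoters in all, none for Foxo4). Neither the E-box core CACGTG nor the FoxO element GTAAACA, searched on both strands, was in any of the 10, against 7.15% and 3.65% of the 32851 promoters in that table.

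Library size and labels were checked before the members were read. Deposited values give for every gene the coverage by reads averaged over its bases, with no scaling between samples, and they summed to between 14950347 and 17954882 per sample. Medians over the tested genes fell from 7.22 to 7.38 at 0 h to 5.64 to 6.14 at 4 h (log2), a larger change than that of the sums (log2 ratios of -0.05 in WT and 0.04 in cKO). The fold changes below are therefore given relative to the median of each sample (median-centred), with the unscaled fold change beside some of them. The shift that centring removed was 0.36 from log2(cKO/WT) at 4 h and 0.09 at 0 h, and -1.47 from log2(4 h/0 h) in WT and -1.20 in cKO. It was the same for every gene, so an unscaled log2 value is the centred one plus that shift. Nudt21 itself had a coverage of 641 to 718 in WT against 158 to 172 in cKO at 0 h, and of 547 to 575 in WT against 115 to 142 in cKO at 4 h, so each library matched its labelled genotype. The value of Nudt21 in cKO averages over all exons, those outside the deleted part included. Macrophage markers were all detected, with a summed coverage of 70220 to 138400 over 10 genes, while B cell, T and NK cell, mast cell, erythroid, dendritic and stromal marker lists each summed to at most 267 in any sample. Neutrophil and granulocyte precursor markers, led by S100a8 and S100a9, summed to 17510 to 34680.

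At rest the 6 genes differed in coverage per base. In the WT samples at 0 h Tfe3 was highest at 1664 and 1474, and Foxo1 was lowest at 222 and 244. Foxo3 (984 and 1257), Tfeb (1174 and 1126) and Mitf (1040 and 1099) lay between them. The Foxo3 pair spanned most of this range and overlapped the others, while the Tfeb pair lay just above the Mitf pair. Foxo4, at 492 and 498, lay below those 3 genes and above Foxo1 without overlap. At 4 h the order was a different one. In WT, Mitf led at 1689 and 1723, followed by Tfe3 at 481 and 626 and by Foxo1 at 69.1 and 76.9. Tfeb (31.2 and 46.8) and Foxo4 (30.9 and 45.9) overlapped, and Foxo3 came last at 9.76 and 15.5. Thus Foxo1, the lowest of the 6 at rest, was the highest FoxO gene after stimulation.

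**Figure D1:**
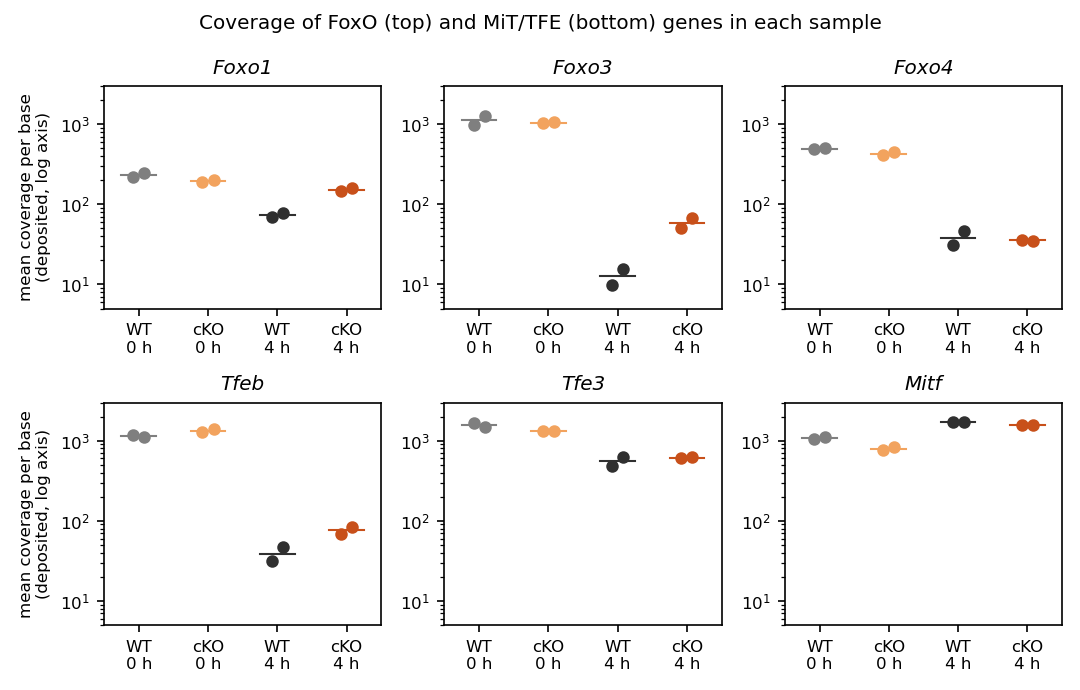
Deposited mean coverage per base (log axis) of each member in the 8 samples, with 2 points per group and a line at their mean. The WT and cKO samples of Foxo3 lie together at 0 h (984 to 1257), whereas at 4 h the WT samples lie at 9.76 and 15.5 and the cKO samples at 50.02 and 67.4.

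Foxo3 gave the largest difference between the genotypes. It encodes the FoxO factor that was most abundant at rest. At 0 h its coverage was 984 and 1257 in WT against 1040 and 1061 in cKO, and the groups overlapped. At 4 h it was 9.76 and 15.5 in WT against 50.02 and 67.4 in cKO. The cKO pair lay above the WT pair, with means of 12.6 ± 4.06 (SD, n = 2) and 58.7 ± 12.3 (SD, n = 2). The median-centred log2(cKO/WT) at 4 h was 1.87 ± 0.24 (SE), a 3.65-fold difference (limma, adjusted p = 0.0138), and it was 2.23 without centring (adjusted p = 0.0104). When only the 4 stimulated samples were fitted the estimate was 1.89 and the adjusted p rose to 0.0819, and without cKO replicate 4 at 4 h it was 1.64 with an adjusted p of 0.0701. At 0 h the median-centred log2(cKO/WT) was -0.18, with a 95% interval of -0.80 to 0.45 (adjusted p = 0.75). The difference between these genotype effects was 2.05 ± 0.35 (SE), which did not pass the threshold (limma, adjusted p = 0.0622).

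Foxo1 encodes the FoxO factor best known for control of metabolism by insulin. At 0 h its coverage was 222 and 244 in WT against 191 and 201 in cKO, so the cKO pair lay below the WT pair. At 4 h it was 69.1 and 76.9 in WT against 146 and 158 in cKO, so the cKO pair lay above the WT pair. The median-centred log2(cKO/WT) was -0.34 ± 0.11 (SE) at 0 h and 0.70 ± 0.11 (SE) at 4 h, and the difference between them was 1.04 ± 0.15 (SE). Without centring the values were -0.25, 1.06 and 1.30. These values describe the pattern by which Foxo1 was selected and carry no test.

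Foxo4 encodes the X-linked member of the family. Its coverage at 0 h was 492 and 498 in WT against 416 and 444 in cKO, and at 4 h it was 30.9 and 45.9 in WT against 36.0 and 34.8 in cKO. The cKO samples lay below the WT samples at 0 h and between them at 4 h. The median-centred log2(cKO/WT) was -0.30 (95% interval -0.63 to 0.04, adjusted p = 0.277) at 0 h and -0.45 (95% interval -0.79 to -0.11, adjusted p = 0.0796) at 4 h, and neither passed the limma threshold. The 4 h value shrank to -0.09 without centring, and without WT replicate 1 at 4 h it was -0.61 and passed (adjusted p = 0.036).

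Tfeb, a master regulator of lysosome formation, was higher in cKO at 4 h by an amount that did not pass the test on the main scale. Its coverage at 0 h was 1174 and 1126 in WT against 1271 and 1386 in cKO, and at 4 h it was 31.2 and 46.8 in WT against 68.5 and 83.3 in cKO. The cKO samples lay above the WT samples at both times. Relative to the medians, log2(cKO/WT) at 4 h was 0.62 ± 0.17 (SE) with a limma adjusted p of 0.0668, so it missed the threshold. Uncentred, the estimate of 0.98 passed (adjusted p = 0.0366), as did the centred one with a filter at a mean of 1 (adjusted p = 0.0493) and with a limma intensity trend (adjusted p = 0.0224). At 0 h it was 0.11 (95% interval -0.32 to 0.54, adjusted p = 0.771), and the difference between the times was 0.51 (95% interval -0.10 to 1.11, adjusted p = 0.294).

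Tfe3, which shares many lysosomal targets with Tfeb, had a coverage at 0 h of 1664 and 1474 in WT against 1304 and 1325 in cKO. At 4 h it was 481 and 626 in WT against 602 and 621 in cKO. The cKO samples were the lower ones at 0 h and lay within the WT range at 4 h. The median-centred log2(cKO/WT) was -0.35 ± 0.11 (SE) at 0 h (limma adjusted p = 0.156) and -0.20 ± 0.11 (SE) at 4 h (adjusted p = 0.266), and the sign at 4 h turned to 0.16 without centring.

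Mitf, the regulator of pigment cells and osteoclasts, was the member whose cKO pair lay below its WT pair on both scales at both times. Its coverage at 0 h was 1040 and 1099 in WT against 763 and 831 in cKO, and at 4 h it was 1689 and 1723 in WT against 1566 and 1587 in cKO. After centring, log2(cKO/WT) was -0.52 ± 0.11 (SE) at 0 h (limma adjusted p = 0.0674) and -0.47 ± 0.11 (SE) at 4 h (adjusted p = 0.0457). The 4 h value passed the adjusted p but lay under the 1.5-fold threshold, and uncentred it shrank to -0.11 (adjusted p = 0.443). The genotype effect on Mitf differed between the times by 0.05 (95% interval -0.34 to 0.44, adjusted p = 0.892).

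**Figure D2:**
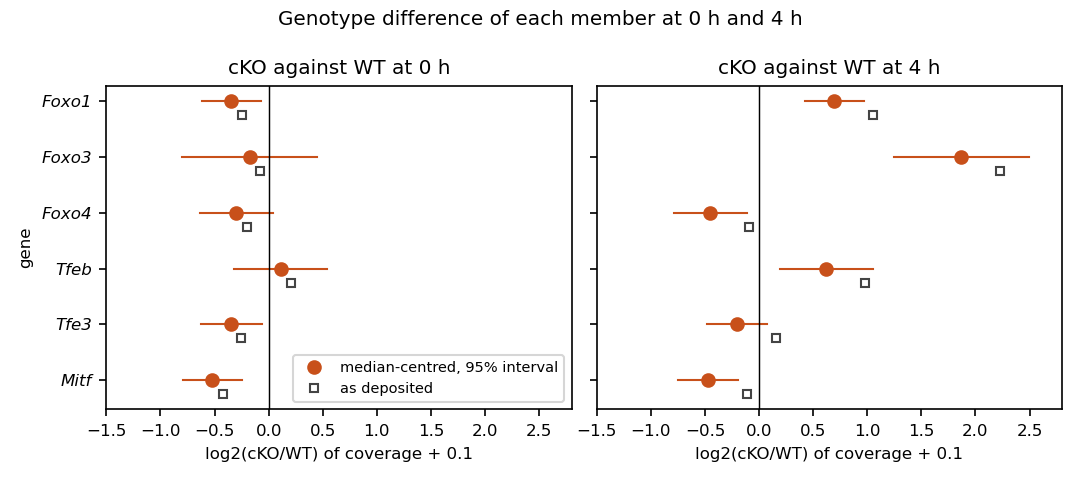
The log2(cKO/WT) of coverage + 0.1 for each member at 0 h (left) and 4 h (right), with filled circles and lines for the median-centred estimate and its 95% interval and open squares for the unscaled values. Foxo3 at 4 h stands apart at 1.87, and the squares lie to the right of the circles by 0.36 at 4 h.

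A gene was called changed at an adjusted p under 0.05 (limma, Benjamini-Hochberg over all 16284 genes) and a fold change over 1.5. Foxo1 was left out of these counts because it was selected on the genotype difference. At 4 h, 1 of the 5 other members, Foxo3, was called higher in cKO and none was called lower, against 6.20% of all genes called higher and 6.72% called lower. Foxo4, Tfeb and Mitf also had an unadjusted p under 0.05. The median log2(cKO/WT) was -0.20 over the 5 members and -0.08 over all genes. At 0 h none of the 5 was called, against 2.68% of all genes called higher and 2.08% called lower. Tfe3 and Mitf had an unadjusted p under 0.05 at 0 h (0.0247 and 0.00461), at coverages 1.27-fold and 1.43-fold lower in cKO on the median-centred scale. For the difference between the genotype effects none of the 5 was called by limma, against 1.07% of all genes called higher, and Foxo3 alone had an unadjusted p under 0.05. Of all 16284 genes, 3338 at 4 h, 2052 at 0 h and 2657 for the difference had such a p and a fold change over 1.5. The number with such a p alone is at least as large and is not given here. Unscaled values shifted the balance over all genes at 4 h from 48.0% to 85.3% higher among the calls, with 16.0% of all genes called higher and 2.75% lower, and 2 of the 5 members, Foxo3 and Tfeb, were then called higher. As in any bulk sample, fewer cells of a type and less RNA per cell cannot be told apart in these values.

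With stimulation, Foxo3, Tfeb and Foxo4 fell in both genotypes under each of the 4 scalings. The mean coverage of Foxo3 in WT fell from 1120 ± 193 to 12.6 ± 4.06 (SD, n = 2 each), 88.6-fold without scaling, and in cKO from 1051 ± 14.7 to 58.7 ± 12.3, or 17.9-fold. Median-centred, log2(4 h/0 h) of Foxo3 was -5.02 ± 0.24 (SE) in WT and -2.97 ± 0.24 (SE) in cKO (limma adjusted p = 7.31e-05 and 0.000407). Tfeb fell 29.5-fold in WT and 17.5-fold in cKO without scaling, or -3.44 and -2.93 on the median-centred log2 scale (adjusted p = 7.35e-05 and 0.000127). Foxo4 fell 12.9-fold and 12.1-fold without scaling, or -2.25 and -2.40 on the median-centred log2 scale (adjusted p = 0.000122 and 0.000111). In all 3 genes every stimulated sample lay below every resting sample, and no stimulated sample held more than 9.28% of the resting mean of its genotype.

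Mitf was the member that rose in both genotypes. Its mean coverage went from 1070 ± 41.5 to 1706 ± 24.1 (SD, n = 2 each) in WT and from 797 ± 48.6 to 1577 ± 14.8 in cKO, which is 1.60-fold and 1.98-fold without scaling. Median-centred, the rises were 2.14 ± 0.11 (SE) in WT and 2.19 ± 0.11 (SE) in cKO (limma adjusted p = 7.95e-05 and 8.09e-05). Every stimulated sample lay above every resting sample on both scales.

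For Foxo1 and Tfe3 the size of the change with stimulation depended on the scale in both genotypes, and in cKO its sign did too. The coverage of Foxo1 fell 3.19-fold in WT and 1.29-fold in cKO without scaling. Relative to the sample medians its log2(4 h/0 h) was -0.21 in WT and 0.83 in cKO, given with no test because the samples are those on which Foxo1 was selected. In cKO the sign was reversed against the unscaled -0.37. Tfe3 fell 2.83-fold in WT and 2.15-fold in cKO without scaling, whereas its median-centred values were -0.05 (95% interval -0.33 to 0.24) and 0.10 (95% interval -0.18 to 0.38). After quantile normalization Tfe3 was called lower in both genotypes, at -1.10 in WT and -0.77 in cKO (adjusted p = 0.00127 and 0.00465). On the unscaled log2 values the median change over all genes was -1.24 in WT and -1.03 in cKO. Tfe3 changed by -1.51 and -1.11. Foxo1 changed by -1.67 in WT and -0.37 in cKO, so it lost more than the median gene in WT and less in cKO.

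Of the 5 members other than Foxo1, 3 were called lower and 1 higher in WT on the median-centred scale, against 20.8% and 33.8% of all genes, with Tfe3 not called. In cKO the same 3 members were called lower and Mitf higher, against 20.8% and 31.5% of all genes. Without scaling, 4 of the 5 were called lower and 1 higher in each genotype, where 54.7% and 50.4% of all genes were called lower and 11.7% and 13.2% higher in WT and cKO. The stimulated WT samples enter the comparison of genotypes at 4 h as well, so these comparisons share samples.

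**Figure D3:**
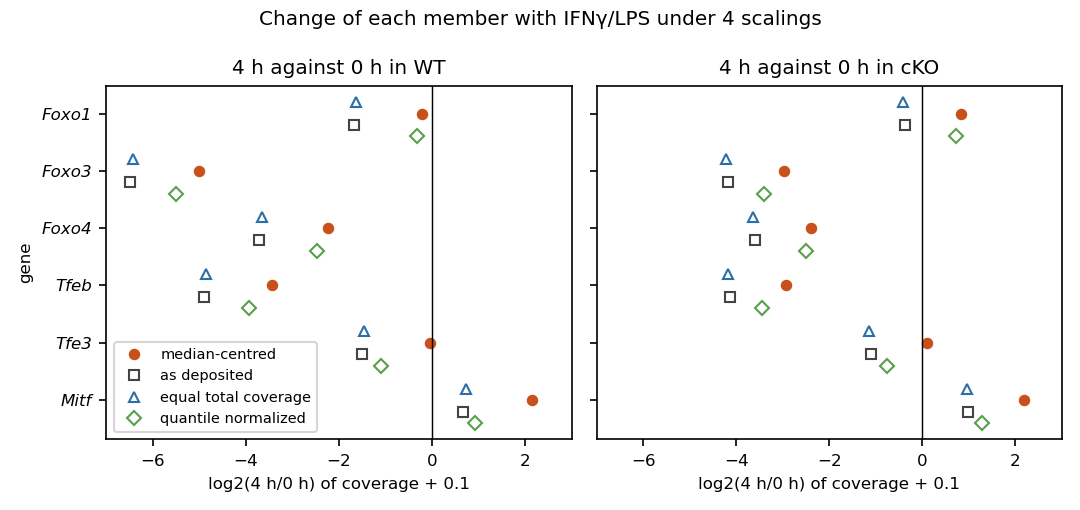
The log2(4 h/0 h) of coverage + 0.1 for each member in WT (left) and cKO (right) under 4 scalings of the samples. Foxo3, Foxo4 and Tfeb lie below 0 and Mitf above 0 under all of them, whereas Tfe3 lies at -0.05 and 0.10 when median-centred and at -1.51 and -1.11 as deposited.

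The make-up of each family can be read within a sample, where scaling between samples plays no part. Of the summed FoxO coverage, Foxo3 held 57.9% and 62.9% in WT at 0 h and 63.2% and 62.2% in cKO, and the genotypes overlapped. At 4 h it held 8.90% and 11.2% in WT and 21.6% and 25.9% in cKO. Foxo1 went from 12.2% to 13.1% of the FoxO coverage in WT at 0 h to 55.6% to 63.0% at 4 h, and from 11.6% to 11.8% in cKO to 60.7% to 62.9%. Foxo1 had thus become the main FoxO RNA in all 4 stimulated samples, and its cKO pair held a larger share of Foxo3 than its WT pair. Foxo4 made up the rest, with 28.1% and 33.2% in WT at 4 h and 15.5% and 13.4% in cKO. The ratio of Foxo3 to Foxo4 within a sample was 2.001 to 2.52 in all 4 resting samples, 0.316 and 0.338 in stimulated WT and 1.39 and 1.94 in stimulated cKO. No test was made on these shares.

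Within the MiT/TFE members, Mitf held 26.8% and 29.7% of the summed coverage in WT at 0 h and 22.8% and 23.5% in cKO. At 4 h it held 76.7% and 71.9% in WT and 70.0% and 69.3% in cKO. Tfeb went from 30.3% and 30.4% in WT and 38.1% and 39.1% in cKO to 1.42% and 1.95% in WT and 3.06% and 3.63% in cKO. Stimulation therefore moved the family from 3 RNAs of like abundance to one in which Mitf predominated and Tfeb was scarce. At each time the cKO pair held more of its coverage in Tfeb, and less in Mitf, than the WT pair. The ratio of Mitf to Tfeb was 36.8 and 54.1 in stimulated WT and 19.1 and 22.9 in stimulated cKO.

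Tfec, the fourth MiT/TFE gene, which is expressed mainly in macrophages, rose like Mitf with stimulation, but its cKO pair lay above its WT pair. Its coverage at 0 h was 428 and 419 in WT against 648 and 754 in cKO, and at 4 h it was 1535 and 1285 in WT against 2172 and 2364 in cKO. Stimulation raised it by 3.197 in WT and 2.90 in cKO (median-centred log2, limma adjusted p = 0.000118 and 0.000179). Without centring the rises were 1.73 and 1.70 (adjusted p = 0.000263 and 0.000332). Its median-centred log2(cKO/WT) was 0.63 ± 0.18 (SE) at 0 h and 0.33 ± 0.18 (SE) at 4 h, and neither passed the limma threshold (adjusted p = 0.136 and 0.283). The uncentred 4 h value of 0.69 did (adjusted p = 0.028), as did the 0 h value of 0.72 after quantile normalization (adjusted p = 0.0326). Within samples the ratio of Mitf to Tfec was 1.10 and 1.34 in WT at 4 h and 0.721 and 0.672 in cKO, so Mitf exceeded Tfec in the stimulated WT samples and Tfec exceeded Mitf in the stimulated cKO samples. Foxo6, the fourth FoxO gene, was listed at 0 in 7 of the 8 samples and did not pass the filter.

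**Figure D4:**
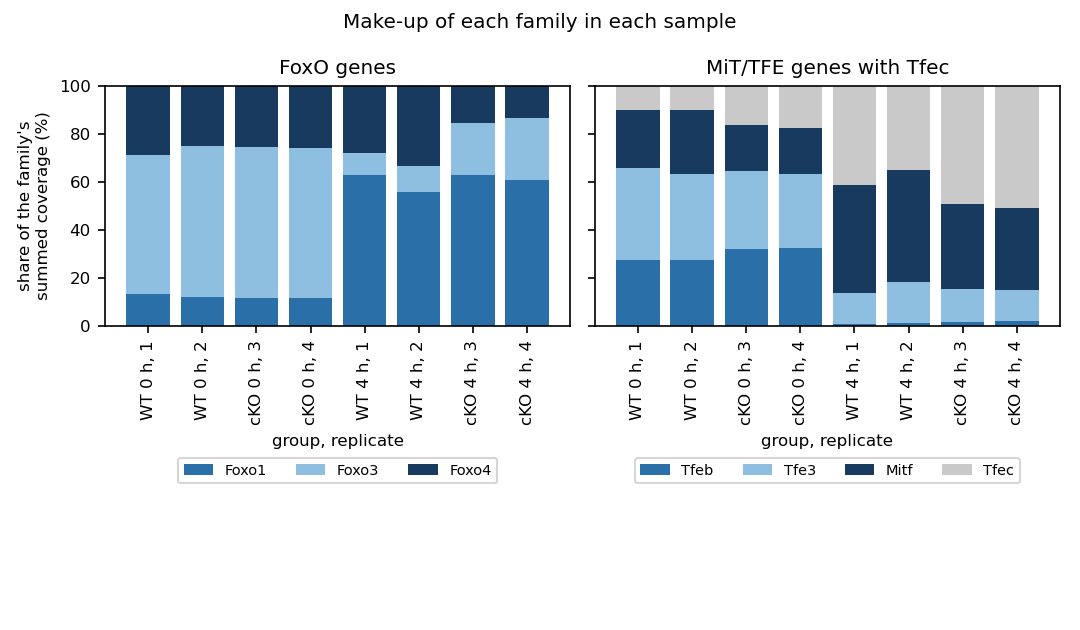
Share (%) of each gene in the summed coverage of the FoxO genes (left) and of the MiT/TFE genes with Tfec (right), with 1 bar per sample. Foxo3 holds 57.9% to 63.2% of FoxO coverage at 0 h and 8.90% to 25.9% at 4 h.

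The balance of genes that act above the FoxO factors followed the scale. Of 27 listed kinases, phosphatases, anchors and cofactors, 2 were called higher and 2 lower in cKO at 4 h on the median-centred scale (all genes, 6.20% and 6.72%), and 9 higher and 1 lower on the unscaled values (all genes, 16.0% and 2.75%). None was called at 0 h, when 7 had an unadjusted p under 0.05. Pik3cg, a catalytic PI3-kinase subunit of leukocytes, fell by 1.44 ± 0.14 (SE, median-centred log2, limma adjusted p = 0.00783). Pik3r1, the regulatory subunit, rose by 1.11 ± 0.13 (SE, adjusted p = 0.0122). The list's median log2(cKO/WT) at 4 h was 0.03 against -0.08 over all genes.

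Of 34 tested target genes of FoxO factors, 9 were called higher in cKO at 4 h and 1, Txnip, was called lower, where 6.20% of all genes were called higher and 6.72% lower. The list's median was 0.33 against -0.08 over all genes. Without centring 18 were called higher and none lower, on a scale on which 16.0% of all genes were called higher and 2.75% lower. Klf4, a zinc finger factor of monocytes, had a coverage of 203 and 148 in WT against 747 and 943 in cKO at 4 h, a median-centred difference of 1.92 ± 0.27 (SE, limma adjusted p = 0.0161). Pik3ip1, an inhibitor of PI3-kinase, rose by 1.27 ± 0.10 (SE, adjusted p = 0.00532). Ulk2, an autophagy kinase, had a coverage of 87.7 and 119 in WT against 307 and 317 in cKO, a median-centred difference of 1.25 ± 0.11 (SE, adjusted p = 0.00605). The study singled out Ulk2, Map1lc3b and Atg12 from these samples, so their part of the count is not independent evidence of its direction. At 0 h, where 2.68% of all genes were called higher and 2.08% lower, 1 target was higher, Atg12 of the LC3 conjugation machinery by 0.73 ± 0.11 (SE), and 1 was lower, the cyclin Ccnd1 by -0.85 ± 0.14 (SE, adjusted p = 0.0429). With stimulation 18 targets were called higher and 9 lower in each genotype on the median-centred scale, where 33.8% of all genes were called higher and 20.8% lower in WT and 31.5% and 20.8% in cKO. Without scaling 10 were higher and 17 lower in WT and 13 higher and 16 lower in cKO, where 11.7% and 13.2% of all genes were called higher and 54.7% and 50.4% lower.

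The calls among regulators of MiT/TFE factors also followed the scale. Of 28 listed genes for mTORC1, Rag GTPases, folliculin, calcineurin and other regulators, 4 were called higher and 4 lower in cKO at 4 h on the median-centred scale, and 8 higher and none lower on the unscaled values. These stand beside 6.20% and 6.72% of all genes with centring and 16.0% and 2.75% without it. Rragd, a Rag GTPase that is itself a known MiT/TFE target, was the largest, with a coverage of 7.19 and 12.4 in WT against 133 and 165 in cKO at 4 h and of 158 and 204 in WT against 986 and 1129 in cKO at 0 h. The cKO pair exceeded the WT pair at each time. Its median-centred log2(cKO/WT) was 3.60 ± 0.25 (SE, limma adjusted p = 0.00397) at 4 h and 2.46 ± 0.25 (SE, adjusted p = 0.0138) at 0 h, where it was the only regulator called. Flcn, which encodes folliculin, rose by 0.94 ± 0.16 (SE, adjusted p = 0.0234) at 4 h, and the kinase Map4k3 fell by 0.93 ± 0.14 (SE, adjusted p = 0.0195). The list's median at 4 h was -0.07 against -0.08 over all genes.

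CLEAR target genes of MiT/TFE, which encode lysosomal and autophagy proteins, had 7 called higher and 3 lower of 57 tested in cKO at 4 h, where 6.20% and 6.72% of all genes were called, and 4 higher and 1 lower at 0 h, where 2.68% and 2.08% were. Rragd is a member of this list as well, and Gla, the lysosomal alpha-galactosidase, rose by 1.28 ± 0.13 (SE, limma adjusted p = 0.00939) at 4 h and by 0.98 ± 0.13 (SE, adjusted p = 0.0271) at 0 h. Cln3, a lysosomal membrane protein gene, fell by 1.10 ± 0.16 (SE, adjusted p = 0.0172) at 4 h. Ppargc1a was called higher at 0 h but was barely covered, at 0.248 and 0.493 in WT against 1.61 and 3.08 in cKO. The medians were 0.13 at 4 h and 0.13 at 0 h, against -0.08 and 0.00 over all genes. Without centring 24 of these genes were called higher and 1 lower at 4 h, against 7 and 3 with centring, so the balance of this list followed the scale, as did that of all genes (16.0% higher and 2.75% lower). Stimulation gave 17 higher and 16 lower in WT and 17 higher and 14 lower in cKO on the median-centred scale, where 33.8% and 20.8% of all genes were called in WT and 31.5% and 20.8% in cKO. On the unscaled values 6 were higher and 42 lower in WT, against 11.7% and 54.7% of all genes, and 5 higher and 41 lower in cKO, against 13.2% and 50.4%.

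Of 16 tested MITF and osteoclast-type targets, 4 were called higher and none lower in cKO at 4 h, against 6.20% and 6.72% of all genes, with 1 lower at an unadjusted p under 0.05. On the unscaled values 6 were higher and none lower, against 16.0% and 2.75% of all genes. Ctsk, the collagen-degrading cathepsin of osteoclasts, had a coverage of 16.3 and 17.99 in WT against 226 and 195 in cKO at 4 h, a median-centred difference of 3.25 ± 0.17 (SE, limma adjusted p = 0.00236). It was also the only one called at 0 h, with 398 and 511 in WT against 1558 and 1434 in cKO (1.63 ± 0.17 SE, adjusted p = 0.0145). Mmp9, a matrix metalloproteinase, rose by 2.28 ± 0.48 (SE, adjusted p = 0.0383) and Acp5, the tartrate-resistant acid phosphatase, by 0.96 ± 0.17 (SE, adjusted p = 0.0248) at 4 h. The list's median was 0.23 at 4 h against -0.08 over all genes. Any link between these targets and the level of Mitf was not tested.

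Macrophage markers also moved with the genotype, and their part in the results above was not tested. At 4 h 1 of 10 was called higher in cKO (Cd68) and 4 lower (Adgre1, Mrc1, Fcgr1 and Spi1), and at 0 h 2 were lower (Adgre1 and Fcgr1), against 6.20% and 6.72% of all genes called higher and lower at 4 h and 2.68% and 2.08% at 0 h. On the unscaled values 1 was called higher and 1 lower at each time, where 16.0% and 2.75% of all genes were called higher and lower at 4 h and 3.27% and 1.61% at 0 h. Mrc1 fell by 2.04 on the median-centred log2 scale and Spi1, the macrophage lineage factor, by 0.80. The summed coverage of the 10 markers was 70220 and 71400 in stimulated WT and 75200 to 79730 in stimulated cKO. The unscaled coverage of neutrophil markers summed to 17510 and 21570 in stimulated WT against 21850 and 24870 in stimulated cKO. At 0 h they summed to 22520 and 24430 in WT against 26070 and 34680 in cKO, so the cKO pair lay above the WT pair at both times on that scale. The total coverage of the cKO samples was the larger as well, and after centring the median log2(cKO/WT) of the 8 neutrophil markers was -0.13 at 4 h and 0.12 at 0 h, with 3 of them lower in cKO at 4 h at an unadjusted p under 0.05 and none higher. Markers of other cell types that were called at 4 h were Retnlg of neutrophils, at 1.74 and 5.28 in WT and 0 in both cKO samples, and Xcr1 of dendritic cells, at 17.5 and 52.4 in WT against 4.64 and 2.32 in cKO. Zbtb46 of the same dendritic list lay the other way, at 6.59 and 7.08 in WT against 16.6 and 23.9 in cKO, and was called on the unscaled values but not after centring (limma adjusted p = 0.122).

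**Figure D5:**
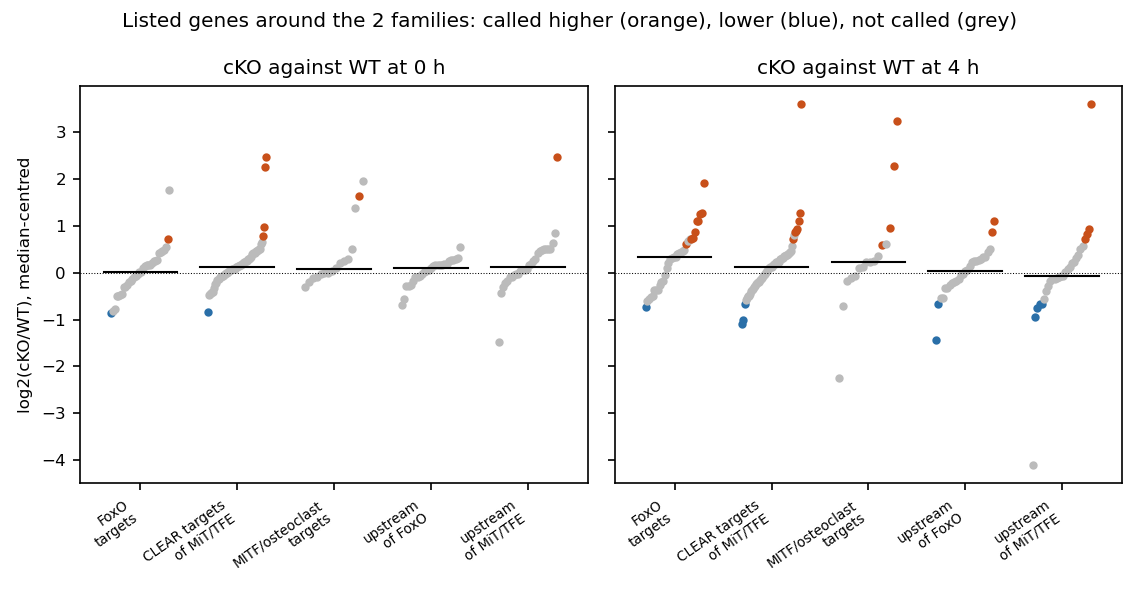
Median-centred log2(cKO/WT) of every tested gene in 5 lists at 0 h (left) and 4 h (right), with 1 point per gene, ordered within each list, and a line at the list's median. Rragd is the highest point of its 2 lists at 2.46 and 3.60, and Ctsk is the highest called point of the osteoclast-type list at 1.63 and 3.25.

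The genes whose median-centred log2 values over the 8 samples most resembled each member were named as a description, and the samples share their groups. Foxo3 was followed most closely by Mxd4, Fam160a2 and Grk6 (Pearson's r of 0.998, 0.998 and 0.998). Mxd4, a MYC antagonist, had a coverage of 34.8 and 57.2 in stimulated WT and 137 and 146 in stimulated cKO, against 1316 to 1705 at rest. Foxo1 was closest to Zmiz2, Paqr4 and Phactr1 (r of 0.980, 0.973 and 0.962), of which Zmiz2, a transcriptional coactivator, had 403 and 471 in stimulated WT and 804 and 869 in stimulated cKO. Foxo4 was closest to Slc46a3, Aagab and Itga6 (r of 0.999, 0.999 and 0.998) and Tfeb to Dgkz, Pram1 and Acap3 (r of 0.999, 0.999 and 0.998). Mitf was closest to Api5, Arl5c and Sgk3 (r of 0.9997, 0.999 and 0.999). In WT the unscaled coverage fell with stimulation from 1605 and 1652 to 1090 and 1197 in Api5. It also fell from 1003 and 1023 to 771 and 793 in Sgk3. In Arl5c it rose from 658 and 709 to 3244 and 2812, as it rose in Mitf, so the likeness to Api5 and Sgk3 holds on the centred scale. Tfe3, which varied least, had no near match of comparable abundance: Klkb1, Irgc1 and Gm37267 came first (r of 0.956, 0.954 and 0.952), with a coverage of at most 6.88 in any sample.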

How the data were processed

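Poly-adenylated or total RNA selection was not given in the sources used here beyond the kit (NEBNext Ultra, strand setting not stated). The authors aligned paired-end reads to mm10/GRCm38 with HISAT2 2.2.1 and quantified RefSeq genes with StringTie 2.1.7. The authors deposited signal values, read as the mean coverage per base of a gene symbol in a sample, with no scaling between samples. The header does not name the unit. Low values (under 0.5) times the length of a gene's single annotated transcript were whole numbers, within 0.02, in 17.5% to 25.5% of cases per sample, against 3.01% to 5.67% with a length wrong by 37 bases. Columns of the authors' own fold changes and p-values were not used. Reads could not be recovered, so no count model was run.

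From the coverage, log2(coverage + 0.1) of the 16284 genes with a mean of at least 0.5 was centred on each sample's median and fitted with limma 3.58.1 in R 4.3.3, with 4 group means over 8 samples and Benjamini-Hochberg adjustment over all genes. Fold changes on this scale understate those of low genes. The study's methods used a fold change over 1.5 and an unadjusted p. The fit was also run on simulated data as a check of the code, and no result here rests on that run. Samples labelled as 0 h carry the stimulation in their treatment label as well and were taken as unstimulated from their titles. Replicates are pools of mice. Genes named are the 6 members, Nudt21, Foxo6 and Tfec, the 3 largest called genes per list and genotype comparison, and the 3 genes most like each member. Markers called and Ulk2, Map1lc3b and Atg12 were named in addition. Members and lists were chosen with earlier results of these data known. CLEAR lists hold 60 symbols, synonyms included. Alternatives were scaling, pseudocount, filter, samples fitted, intensity trend, call rule, a replicate block and leaving out each sample. One gene of the list upstream of FoxO is counted in that list's totals and is not reported by itself here.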

Additional observations from a re-analysis of the deposited data

Results flagged for a closer look

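Foxo1 was singled out because both cKO samples lay below both WT samples at 0 h (191 and 201 against 222 and 244) and above both at 4 h (146 and 158 against 69.1 and 76.9), a difference in median-centred log2(cKO/WT) of 1.04 that was not tested, since Foxo1 was selected on it. The other 3 results were singled out by the limma test of the difference between the genotype effects at the 2 times. Cln3 was higher in cKO at 0 h (2987 and 4025 against 2268 and 1979) and lower at 4 h (3525 and 3276 against 5690 and 5657), a difference of -1.72 (adjusted p = 0.0386). Lamtor3, a subunit of the Ragulator complex that carries Rag GTPases, was likewise higher at 0 h (1919 and 2143 against 1618 and 1473) and lower at 4 h (765.5 and 748 against 899 and 979), a difference of -0.97 (adjusted p = 0.042). Pik3ip1 was 36.7 and 42.2 in cKO against 29.5 and 31.1 in WT at 0 h and 34.5 and 30.7 against 9.30 and 11.7 at 4 h, a difference of 0.99 (adjusted p = 0.0444). Without centring the adjusted p of these 3 differences was 0.053, 0.089 and 0.0575, so none passed on that scale. With the replicate number as a block in the centred fit, 0 genes were called for this difference, so none of the 3 passed there either. Groups of 2 samples were too small to look for outlying samples.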

How the results depend on the processing

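Foxo3, Foxo4 and Tfeb fell and Mitf rose with stimulation, past the threshold, in every alternative run. The counts of members called include Foxo1, which was selected on its genotype difference and whose call is no test. The number called in cKO against WT at 4 h was 2, dropped to 0 when the 4 stimulated samples alone were fitted and ran from 0 to 3 when 1 sample was left out. Without Foxo1 it was 1 (Foxo3), 0 with the 4 samples and without cKO replicate 4 at 4 h, and 2 with Tfeb as deposited, with a filter at a mean of 1, with the intensity trend and with the study's unadjusted p, with Foxo4 without WT replicate 1 at 4 h and with Mitf when no fold was asked. At 0 h it was 0 and became 1 with quantile normalization (Mitf). For the difference between the genotype effects it was 1, Foxo1 itself, and became 0 with a pseudocount of 1 and with no filter, 2 with the intensity trend and 2 with the study's unadjusted p (Foxo3 the other one), and it was 0 in each fit that left out 1 sample. With the replicate block it was also 0, as was the number of all genes called (346 without it). The replicate numbers recur between the times, but the labels do not say that they mark the same animals, so no pairing was assumed. Replicate differences at 0 h and 4 h correlated at 0.02 in WT and 0.024 in cKO over genes. That cannot exclude pairing, because noise between samples can hide it. The block was not run between the genotypes, whose replicate numbers differ, and it changed neither count of members called with stimulation. Values that changed sign were those of Tfe3 at 4 h as deposited (0.16), Tfe3 with stimulation in WT with no filter (0.012) and over the fits that left out 1 sample (-0.13 to 0.036), Tfe3 with stimulation in cKO as deposited (-1.11), at equal total coverage (-1.14) and after quantile normalization (-0.77), and Foxo1 with stimulation in cKO as deposited (-0.37) and with equal total coverage (-0.41). The others were Foxo3 at 0 h without WT replicate 2 (over the fits that left out 1 sample, -0.36 to 0.0090), and the difference between the times for Foxo4 as deposited (0.11), with equal total coverage (0.026) and without WT replicate 2 at 4 h (leaving out 1 sample, -0.32 to 0.012), and for Mitf without that same sample (leaving out 1 sample, -0.062 to 0.15). The causes were not tested. The number of genes called at 4 h was 2104, 236 with the 4 stimulated samples alone and, leaving out 1 sample, 446 (cKO replicate 4 at 4 h), 851 (cKO replicate 3 at 4 h), 1116 and 1121 (cKO replicates 4 and 3 at 0 h) and otherwise 1743 to 2170. At 0 h it was 775, 176 with 4 samples, 1211 with quantile normalization, 253 and 307 without cKO replicate 4 or 3 at 0 h, 345 and 422 without WT replicate 1 or 2 at 0 h, 359 and 361 without cKO replicate 3 or 4 at 4 h, and 804 and 801 without WT replicate 1 or 2 at 4 h. The count of 346 for the difference between the genotype effects became 1025 with the intensity trend and 165 to 219 without any 1 cKO sample. With the study's unadjusted p the counts of genes were 3338 at 4 h, 2052 at 0 h and 2657 for the difference. Coverage gives no read counts, so counting error could not be set apart. DESeq2 was not run for the same reason.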
